A study of Brachypodium distachyon with 8 samples.

Results

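The response of Brachypodium leaves to methyl jasmonate (MeJA) was described from 8 mRNA-seq libraries, 4 from MeJA-treated plants and 4 from mock-treated plants, which were all of the 8 libraries of the series. The libraries were compared over both genotypes, with genotype as a covariate, after scaling to a common median ratio. Plants were *Brachypodium distachyon* of the inbred line Bd21-3, a small temperate grass used as a model for cereals. Each library was made from total RNA of leaves pooled from 12 plants, given as 4 wk old. MeJA was sprayed at 100 μM in 0.15% Tween, and the mock solution was 0.15% Tween alone. The study's methods give 2 spraying schedules for MeJA and do not say which one was used for sequencing. The one described with the gene expression analysis ended with a harvest for RNA shortly after the last spray. Both schedules start with plants of 4 wk, so the plants may have been older at harvest than given.

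There were 2 samples in each of 4 groups, MeJA-treated MTL-OX, mock-treated MTL-OX, MeJA-treated WT and mock-treated WT. MTL-OX was taken to be the *BdLNJ-OX* material, transgenic plants in which the coding sequence of *LITTLE NINJA* (*LNJ*) is overexpressed from an introduced construct, and the labels do not say whether the MTL-OX samples came from 1 line or several. Libraries are called here by the number in their sample label, MeJA libraries 7 and 8 (labelled MTL-OX) and 3 and 4 (labelled WT), and mock libraries 5 and 6 (labelled MTL-OX) and 1 and 2 (labelled WT). For all 8 libraries the name of the deposited table gives the other genotype than the label. The *LNJ* transcript went with the table names. It was at 0 and 0.761 FPKM in MeJA libraries 7 and 8 and at 0 in mock libraries 5 and 6, all labelled MTL-OX. In the libraries labelled WT it was at 565 and 544 FPKM after MeJA and at 659 and 740 FPKM after mock. Treatment is the same in the labels and the table names, so the comparison of MeJA with mock does not depend on which is right, and only the side on which a genotype stands would change. The genotypes are given below as labelled.

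Jasmonic acid is a lipid-derived hormone that plants make after wounding, herbivore feeding and attack by some pathogens, and MeJA is its volatile methyl ester. In the well-studied pathway of *Arabidopsis*, JAZ proteins repress MYC-type transcription factors, and the adaptor protein NINJA links JAZ to the TOPLESS corepressor. The hormone's isoleucine conjugate lets the receptor COI1 mark JAZ for degradation, which frees the MYC factors to activate jasmonate-responsive genes.

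Values are FPKM (fragments per kilobase of transcript, relative to the mapped fragments of the library), divided by a factor per library that brought the median ratio between libraries to 1. How many fragments a value rests on was read from the deposited confidence bounds, and the libraries held 13452995 to 15075280 implied fragments after MeJA and 13910961 to 15821699 after mock. Between 19514 and 19959 of 27830 gene identifiers were above 0 in a library. Scaling factors were 0.990 to 1.10 for MeJA libraries and 0.855 to 1.05 for mock libraries, a difference of the means of 0.087 (two-sided exact permutation test within genotype, p = 0.0556, the smallest p that its 36 arrangements can give). The 10 highest identifiers held 17.9% to 21.5% of the FPKM in MeJA libraries and 19.6% to 27.2% in mock libraries, with the highest share in mock library 5. The defining marker genes of leaf tissue were not analysed here, because the BRADI identifiers could not be paired with gene names.

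Of 14904 genes with a mean of at least 1 FPKM, 25 were called different between MeJA and mock at an adjusted p of at most 0.05 and a change of at least 2-fold (0.168% of those tested). They were 15 genes that rose (0.101%) and 10 genes that fell (0.0671%) after MeJA. In 23 of the 25, the 4 MeJA and the 4 mock libraries did not overlap, which a call made on these same libraries favours. Over all genes tested, 3.63% were higher and 2.62% lower without overlap. The median log2 difference was 1.59 over the genes that rose and −1.54 over those that fell, against −0.0007 over all genes tested. All 14904 genes were fitted together with limma on log2(FPKM + 1), with Benjamini-Hochberg adjustment over all of them. The labels call the 2 samples of a group biological replicates without giving their origin, so the p-values measure the spread between these samples. A lower level in leaf RNA can come from fewer cells that express a gene or from less RNA per cell, and these cannot be told apart here.

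**Figure D1:**
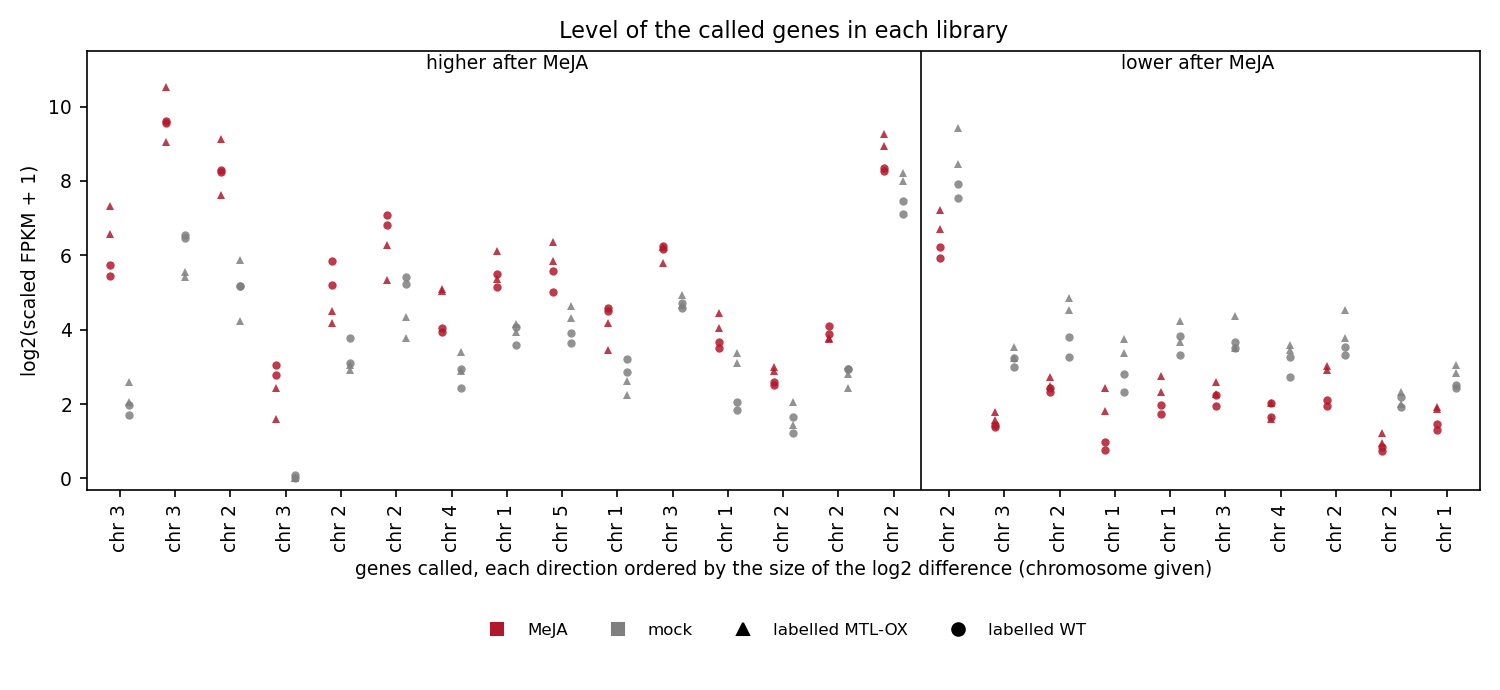
Level of each of the 25 called genes as log2(scaled FPKM + 1) in every library, with MeJA libraries in red and mock libraries in grey, and the labelled genotype as the shape of the point. The 15 genes that rose stand left of the line and the 10 that fell stand right of it, each named by chromosome and ordered by the size of the log2 difference. The colours do not overlap in 23 of the 25 genes, which were called on these same libraries.

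On the log2(FPKM + 1) scale the largest difference among the genes that rose was that of BRADI3G34720 on chromosome 3 (37082528 to 37087778, as the deposited tables give it, for a genome build that the sources used here do not name). It had 93.6 and 159 FPKM in MeJA libraries 7 and 8 and 42.6 and 52.9 FPKM in MeJA libraries 3 and 4, against 3.13 and 5.05 FPKM in mock libraries 5 and 6 and 2.24 and 2.94 FPKM in mock libraries 1 and 2. The lowest MeJA library was therefore far above the highest mock library. The means were 86.9 ± 52.6 FPKM after MeJA and 3.34 ± 1.20 FPKM after mock (SD, n = 4 each), a 26.0-fold ratio. The log2 difference was 4.19 (SE 0.25, limma adjusted p = 0.00279). At least 62.6 implied fragments stood behind each of these values. The gene passed the threshold in each of the 8 fits that left out 1 library.

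BRADI3G35700, also on chromosome 3 (38002098 to 38004022), was the called gene with the highest level after MeJA. It had 531 and 1481 FPKM in MeJA libraries 7 and 8 and 783 and 757 FPKM in libraries 3 and 4, against 45.9 and 42.0 FPKM in mock libraries 5 and 6 and 91.8 and 87.1 FPKM in libraries 1 and 2. The treatments did not overlap, and the MeJA libraries spread more widely among themselves in the material labelled MTL-OX. The means were 888 ± 411 FPKM after MeJA and 66.7 ± 26.4 FPKM after mock (SD, n = 4 each), with a log2 difference of 3.70 (SE 0.36, limma adjusted p = 0.0227). It passed the threshold in 3 of the 8 fits with 1 library left out.

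On the same scale the largest difference among the genes that fell was that of BRADI2G16280 on chromosome 2 (14369033 to 14369368), a locus of 336 bp. It had 149 and 104 FPKM in MeJA libraries 7 and 8 and 74.1 and 60.2 FPKM in libraries 3 and 4, against 683 and 353 FPKM in mock libraries 5 and 6 and 184 and 241 FPKM in libraries 1 and 2. These values rest on 7 to 11.9 implied fragments after MeJA and 20 to 34.7 after mock, since 1 fragment in so short a locus is worth many FPKM. The log2 difference was −1.81 (SE 0.24, limma adjusted p = 0.0459), and the gene passed the threshold in 1 of the 8 fits with 1 library left out. With voom on the implied fragments it was −1.36 and was not called (limma adjusted p = 0.135).

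BRADI3G05880 on chromosome 3 (4178779 to 4184487) rested on more fragments, and its means differed by more, 4.42-fold against 3.77-fold for BRADI2G16280. It had 2.47 and 1.99 FPKM in MeJA libraries 7 and 8 and 1.59 and 1.71 FPKM in libraries 3 and 4, against 10.5 and 8.36 FPKM in mock libraries 5 and 6 and 8.41 and 7.0 FPKM in libraries 1 and 2. Every MeJA library was below every mock library, on 68.7 to 101 fragments after MeJA and 319 to 423 after mock. The means were 1.94 ± 0.388 FPKM after MeJA and 8.58 ± 1.46 FPKM after mock (SD, n = 4 each). The log2 difference was −1.70 (SE 0.11, limma adjusted p = 0.00279), and −2.09 with a pseudocount of 0.1. The call held in each of the 8 fits with 1 library left out.

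None of the called genes could be given a name. Identifiers are printed for 2 genes per direction, and the other 21 called genes are described by position and size. Of the 13 other genes that rose, the one with the largest difference on the log2(FPKM + 1) scale was a 628 bp locus on chromosome 2 at 39387730. It had 194 and 557 FPKM in MeJA libraries 7 and 8 and 301 and 315 FPKM in libraries 3 and 4, against 57.4 and 17.8 FPKM in mock libraries 5 and 6 and 35.4 and 35.4 FPKM in libraries 1 and 2. Its log2 difference was 3.20 (SE 0.41, limma adjusted p = 0.0459), and it did not pass in any of the 8 fits with 1 library left out. Its wide spread within a treatment, most visible in library 8 after MeJA and library 6 after mock, gave it the largest SE of the called genes.

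A gene on chromosome 3 at 37986914 was almost silent after mock. It had 2.03 and 4.41 FPKM in MeJA libraries 7 and 8 and 7.35 and 5.87 FPKM in libraries 3 and 4, whereas after mock it was at 0 in libraries 1, 5 and 6 and at 0.0587 FPKM in library 2. In fragments this was 315 over the 4 MeJA libraries and 1 over the 4 mock libraries, a ratio of 315 with an exact 95% interval of 56.1 to 12481 that covers counting error only. As a ratio this was larger than that of BRADI3G34720. Its log2 difference was 2.45 with a pseudocount of 1, which understates low genes, and 5.34 with a pseudocount of 0.1, against 4.53 for BRADI3G34720. The limma adjusted p was 0.0235, and 2 of the 8 fits with 1 library left out called it.

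Further genes rose by less, some of them with narrower groups. A 1034 bp locus on chromosome 3 at 49706021 had 54.9 and 74.2 FPKM in MeJA libraries 7 and 8 and 74.9 and 71.6 FPKM in libraries 3 and 4, against 29.3 and 24.5 FPKM in mock libraries 5 and 6 and 23.1 and 25.3 FPKM in libraries 1 and 2. Its log2 difference was 1.39 (SE 0.13, limma adjusted p = 0.0227), and 4 of the 8 fits with 1 library left out called it. A gene on chromosome 2 at 33514732 averaged 13.7 ± 1.65 FPKM after MeJA and 5.93 ± 1.08 FPKM after mock (SD, n = 4 each), with a log2 difference of 1.10 (SE 0.10). A gene on chromosome 2 at 56529925 averaged 433 ± 146 FPKM after MeJA and 215 ± 72.5 FPKM after mock. Its log2 difference of 1.01 lay just inside the 2-fold limit, and ranged from 0.94 to 1.08 with 1 library left out. Its groups were wide, with 306 FPKM in the lowest MeJA library (4) and 296 FPKM in the highest mock library (5). The other 8 genes that rose had log2 differences from 1.15 to 1.73. They lay on chromosomes 1, 2, 4 and 5.

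In 1 of these 8, on chromosome 2 at 57766636, the treatments overlapped when the genotypes were not separated. It had 39.1 and 76.3 FPKM in MeJA libraries 7 and 8 and 134 and 111 FPKM in libraries 3 and 4, against 12.6 and 19.3 FPKM in mock libraries 5 and 6 and 36.5 and 41.5 FPKM in libraries 1 and 2. The MeJA libraries were above the mock libraries of the same label in both genotypes. Another of the 8, on chromosome 2 at 40766030, shares its locus with an overlapping gene, and fragments of the pair may have been divided between them.

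The other 8 genes that fell had log2 differences from −1.62 to −1.07 and mean levels after mock of 3.35 to 17.9 FPKM. The one with the smallest SE lay near the start of chromosome 1, at 471635. It had 2.81 and 2.65 FPKM in MeJA libraries 7 and 8 and 1.49 and 1.74 FPKM in libraries 3 and 4, against 6.16 and 7.28 FPKM in mock libraries 5 and 6 and 4.38 and 4.69 FPKM in libraries 1 and 2. Its log2 difference was −1.07 (SE 0.09, limma adjusted p = 0.0141), and it was called in 4 of the 8 fits with 1 library left out. A gene on chromosome 2 at 11238872 fell by 1.62 on the log2 scale, to 4.66 ± 0.666 FPKM after MeJA, against 17.9 ± 8.81 FPKM after mock. It had 28.0 and 22.2 FPKM in mock libraries 5 and 6 and 12.9 and 8.56 FPKM in mock libraries 1 and 2. Its log2 difference was −2.09 in the libraries labelled MTL-OX and −1.14 in those labelled WT. The limma test of the difference between these responses gave an unadjusted p of 0.0168 and an adjusted p of 0.998. Of the 8 fits with 1 library left out, 0 called it. On chromosome 1 at 40083986 the treatments overlapped, with 2.49 and 4.35 FPKM in MeJA libraries 7 and 8 and 0.700 and 0.966 FPKM in libraries 3 and 4, against 12.5 and 9.41 FPKM in mock libraries 5 and 6 and 6.03 and 3.99 FPKM in libraries 1 and 2. As in the gene that rose with overlap, the overlap was between libraries of different labels, and within each label the MeJA libraries were lower.

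Genes past looser limits were more numerous. An unadjusted p under 0.05 was reached by 1126 genes that were higher after MeJA (7.56%) and 917 that were lower (6.15%). The 4 MeJA libraries lay above the 4 mock libraries in 541 genes (3.63%) and below them in 390 genes (2.62%). With means at least 2-fold apart in addition, 120 genes were higher (0.805%) and 43 were lower (0.289%), which included 14 of the 15 genes that rose and 9 of the 10 that fell. The large differences of these 2 sets were on the higher side. The means were at least 4-fold apart in 30 higher and 7 lower genes, and at least 10-fold apart in 15 higher genes and 0 lower genes. At least 10 implied fragments stood in every library of the treatment with the higher level for 114 of the 120 and 41 of the 43.

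The level of the called genes varied widely in both directions. The mean FPKM over the 8 libraries had a median of 30.6 for the genes that rose, with a range of 2.46 to 477, and of 7.02 for the genes that fell, with a range of 2.14 to 231. The median over all genes tested was 8.17. In the longer lists of 120 higher and 43 lower genes the medians were 6.03 and 5.67 FPKM. Among genes with a mean of 20 to 100 FPKM, 6 rose and 0 fell of 2994 tested, and among those with 5 to 20 FPKM, 4 rose and 7 fell of 5606. Below 5 FPKM, 2 rose and 2 fell of 5296, and above 100 FPKM, 3 rose and 1 fell of 1008. These are counts of called genes and were not tested against each other, and the smallest difference that could be called depended on the level of the gene.

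**Figure D2:**
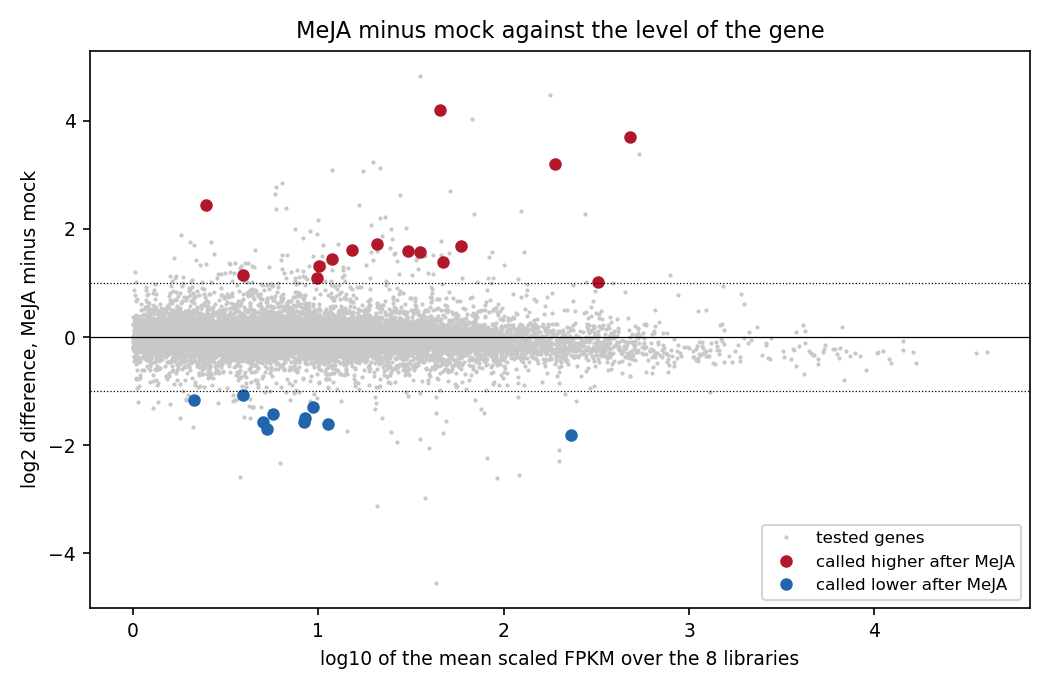
The log2 difference of MeJA minus mock, on the log2(FPKM + 1) scale, against the log10 of the mean scaled FPKM for the 14904 genes tested (grey points). The 15 genes that rose are in red and the 10 that fell in blue, and dotted lines mark a 2-fold change. Grey points beyond the dotted lines are genes that did not pass the limit on the adjusted p.

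Highly expressed genes as a group stood lower after MeJA relative to the rest. Over the 1008 genes with a mean above 100 FPKM the median log2 difference was −0.15, and 73.5% of them were below 0. An unadjusted p under 0.05 was reached by 43 of them higher (4.27%) and 144 lower (14.3%), whereas 8.69% of genes with 5 to 20 FPKM were higher and 5.07% lower at the same limit. The direction of these counts depended on the scaling. With the deposited FPKM not rescaled, the median over all genes moved to 0.11, the median of the genes above 100 FPKM was −0.02, which is −0.13 relative to all genes, and 9.03% of them were higher and 6.55% lower. Without mock library 5, in which the 10 highest identifiers held the largest share of the FPKM, 7.65% were lower, and without MeJA library 8 the median was −0.08. In the libraries labelled MTL-OX alone the median was −0.23 and in those labelled WT alone −0.07. In the libraries labelled WT alone 38 of these genes were higher (3.77%) and 36 lower (3.57%) at the same limit. The part that library composition had in this difference was not tested. The levels at which genes were grouped were chosen after the data were seen.

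**Figure D3:**
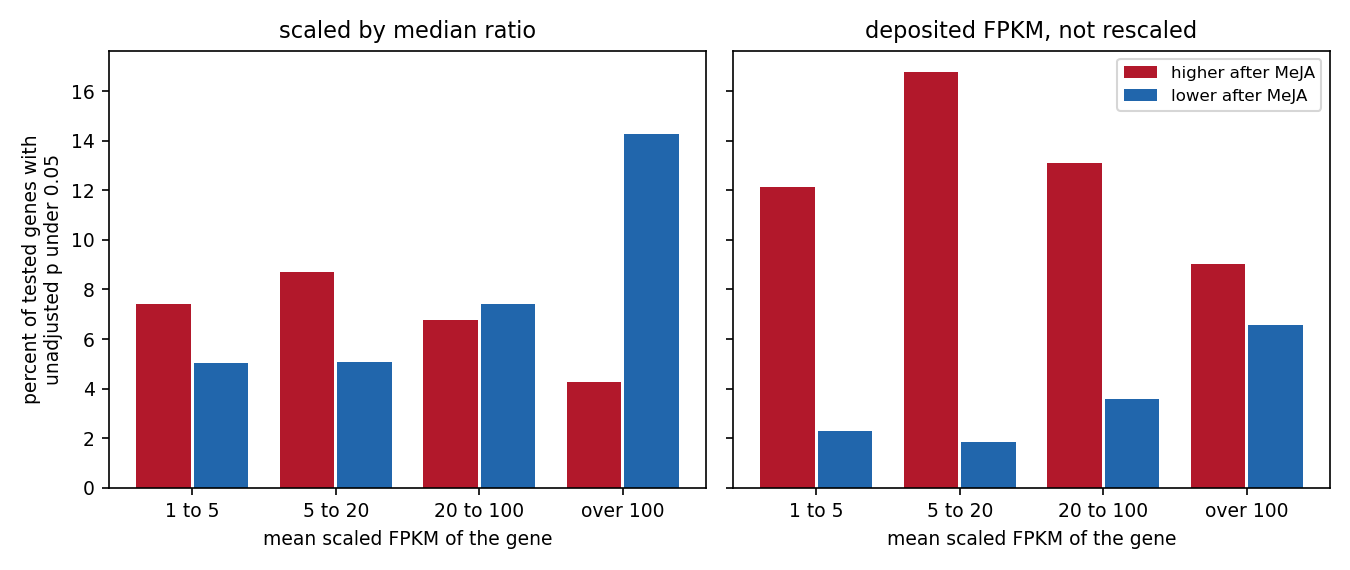
Percent of tested genes with an unadjusted p under 0.05 that were higher (red) or lower (blue) after MeJA, by the mean scaled FPKM of the gene, with libraries scaled by the median ratio (left) and with the deposited FPKM not rescaled (right). Above 100 FPKM the lower genes were 14.3% with scaling and 6.55% without it.

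The called genes were spread over the chromosomes. Chromosome 1 held 3 genes that rose and 3 that fell of 4529 tested, chromosome 2 held 6 and 4 of 3399, chromosome 3 held 4 and 2 of 3378, chromosome 4 held 1 and 1 of 2183, and chromosome 5 held 1 and 0 of 1415. Their loci were shorter than most, with a median of 1925 bp for the genes that rose and 1997.5 bp for those that fell, against 3316 bp over all genes tested. In the longer list of genes with means 2-fold apart and no overlap, the share of higher genes was 2.05% among loci of 500 to 1000 bp and 0.195% among loci over 5000 bp, and that of lower genes 0.783% and 0.195%. Short loci also had more spread, with a median SE of 0.199 on the log2 scale against 0.110.

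The only neighbouring genes among the 25 were BRADI3G35700 and the gene that was almost silent after mock, which lie 12356 bp apart on chromosome 3. They belong to a stretch of 4 successive genes over 28115 bp (37975908 to 38004022) in which every gene had means at least 2-fold higher after MeJA and no overlap between the treatments. The stretch was picked out after its values were seen. In the order of their positions the log2 differences were 1.83, 2.33, 2.45 and 3.70, and the limma adjusted p-values were 0.0875, 0.0613, 0.0235 and 0.0227, so that the first pair did not pass the threshold. The first gene averaged 13.7 ± 8.20 FPKM after MeJA and 2.76 ± 0.438 FPKM after mock, and the second 211 ± 118 FPKM after MeJA and 37.8 ± 8.11 FPKM after mock (SD, n = 4 each).

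The levels within the stretch differed widely although the direction was shared. MeJA library 8 had the highest value of the first, second and last gene, at 25.8, 385 and 1481 FPKM, but not of the third, which was highest in MeJA library 3 at 7.35 FPKM. The 8 tested genes nearest to the stretch on both sides had log2 differences between −0.55 and 0.26. BRADI3G34720 lies 899135 bp before the gene that was almost silent after mock, with other genes between them.

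A second group was found on chromosome 1, between 45730360 and 45767784, where 3 genes within 6 successive genes had means at least 2-fold higher after MeJA and no overlap. None of them passed the threshold. Their log2 differences were 1.78, 0.80 and 1.22, and their limma adjusted p-values were 0.0700, 0.0766 and 0.107. The first had 89.7 and 60.1 FPKM in MeJA libraries 7 and 8 and 74.8 and 59.3 FPKM in libraries 3 and 4, against 35.0 and 16.2 FPKM in mock libraries 5 and 6 and 12.1 and 21.4 FPKM in libraries 1 and 2. The other tested genes near this group had log2 differences between −0.21 and 0.49. Among the genes that were lower after MeJA, 0 such groups of at least 3 within 10 successive genes were found.

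**Figure D4:**
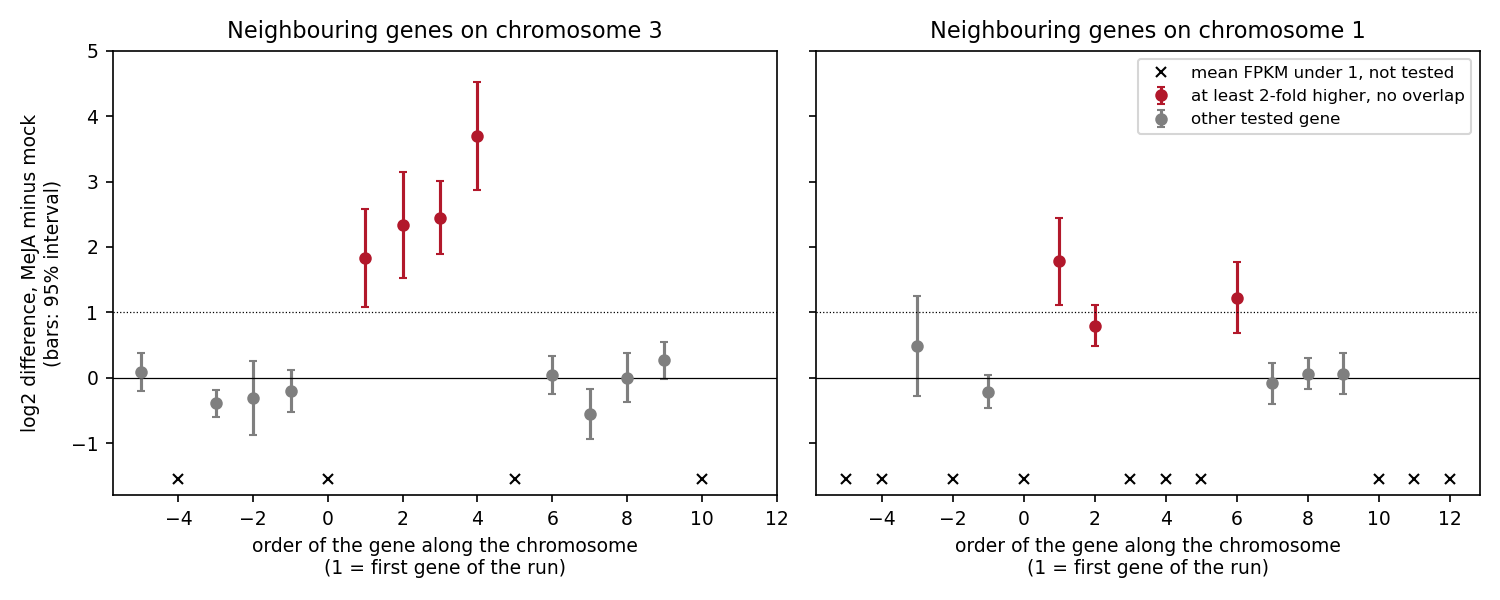
The log2 difference of MeJA minus mock, on the log2(FPKM + 1) scale with its 95% interval, for successive genes on chromosome 3 (left) and chromosome 1 (right), by the order of the genes. Red points are genes with means at least 2-fold higher and no overlap, grey points are the other genes tested, and crosses mark genes with a mean under 1 FPKM, which were not tested. On chromosome 3 the 4 red points lie between 1.83 and 3.70 and the grey points between −0.55 and 0.26.

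The response of the called genes was then read within each labelled genotype. All 25 called genes had the same direction in the libraries labelled MTL-OX and in those labelled WT. Of them, 24 were past 2-fold in both. The pooled call, made on the same libraries at a 2-fold limit, favours both counts, so neither is separate evidence of the response. The median log2 difference of the genes that rose was 1.63 in the libraries labelled MTL-OX and 1.56 in those labelled WT, and that of the genes that fell was −1.49 and −1.45 in the same order. BRADI3G34720 differed by 4.62 in the libraries labelled MTL-OX and by 3.76 in those labelled WT, and BRADI3G35700 by 4.31 in MTL-OX and 3.09 in WT. A test of the difference between the responses passed the threshold in none of the 25 (limma adjusted p = 0.998 for each), and 2 of them had an unadjusted p under 0.05. With 2 samples per group this does not show that the genotypes responded alike. Over all genes tested, 2 passed this test (0.0134%), both with at most 1 implied fragment in any library, and 651 had an unadjusted p under 0.05 (4.37%).

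**Figure D5:**
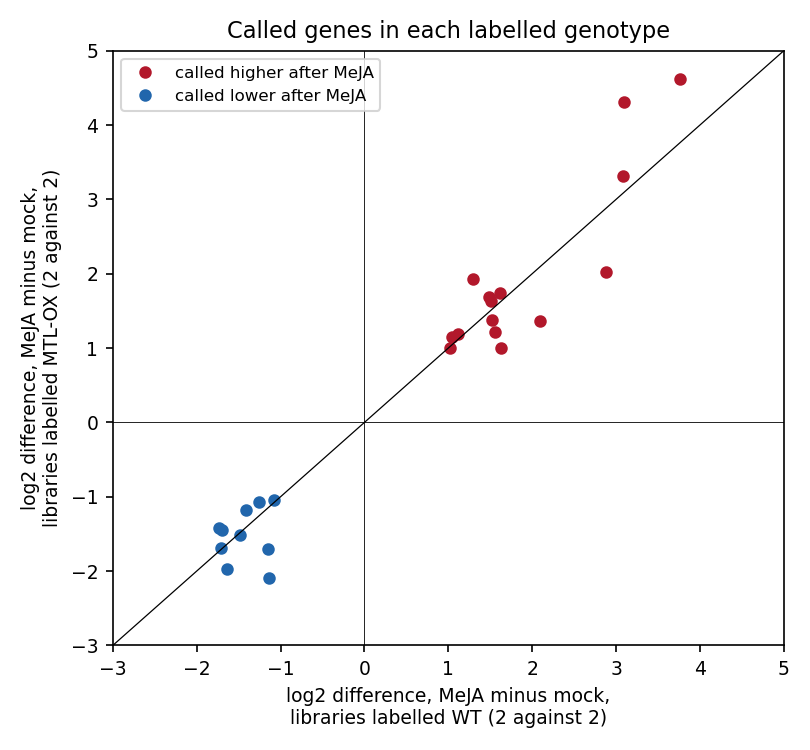
The log2 difference of MeJA minus mock in the libraries labelled MTL-OX (vertical axis) against that in the libraries labelled WT (horizontal axis), both on the log2(FPKM + 1) scale with 2 libraries against 2, for the genes that rose (red) and fell (blue). The line marks equal differences, and all 25 points lie to the lower left or the upper right of the origin.

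The pathway genes that the study gives an identifier for did not pass the threshold. The *JAZ* gene BRADI1G21490, which codes for a repressor of the jasmonate response, averaged 38.8 ± 14.2 FPKM after MeJA and 35.1 ± 12.4 FPKM after mock (SD, n = 4 each). Its log2 difference was 0.13, with a 95% interval of −0.12 to 0.39 (limma adjusted p = 0.639). *NINJA* (BRADI2G11790), the adaptor between JAZ and TOPLESS, averaged 20.7 ± 2.43 FPKM after MeJA and 19.6 ± 2.81 FPKM after mock, with a log2 difference of 0.08 and an interval of −0.16 to 0.32 (limma adjusted p = 0.773). For both genes the interval leaves out a 2-fold change in either direction. *LNJ* (BRADI1G69970) is annotated as a locus of 309 bp. The paper describes LNJ as a possible splice form of a larger NINJA-domain protein whose annotation was incorrect. It leaves unclear whether such a microProtein is made in Brachypodium. The log2 difference of *LNJ* was 0.04 (SE 0.21, limma adjusted p = 0.959). Its level separated the libraries by labelled genotype, as given above, and those labelled MTL-OX held 1 implied fragment in library 8 and 0 in the others. The other genes of jasmonate synthesis and signaling were not analysed here, because no identifier for them could be paired with a name.

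Some classes of RNA are named in the deposited tables, and none of their members was called. Over all genes tested 0.168% were called, so with so few members this is no result about the classes. The classes were picked out after the tables were seen. Of 298 ribosomal RNA identifiers 70 were tested, and 53 of these were below 0, with a median log2 difference of −0.23 and 11 lower (15.7%) and 0 higher at an unadjusted p under 0.05, where 6.15% and 7.56% of all genes were lower and higher. Of the 70, 43 had at least 10 implied fragments in every library and 26 had fewer than 10 in each. Many are copies of the same RNA with nearly equal values, among which fragments could be divided, so they are not separate members. Without rescaling the median was −0.10, against 0.11 over all genes. Ribosomal RNA held 2.28% to 4.59% of the FPKM in MeJA libraries and 2.65% to 4.47% in mock libraries, so the shares overlapped. All 11 identifiers with plastid gene names have positions on chromosomes 1, 2, 3 and 5, and 8 had at least 10 implied fragments in every library. Whether their fragments came from plastid transcripts was not tested. Of the 11, 8 were below 0, with a median of −0.25. This median was −0.49 in the libraries labelled MTL-OX alone and 0.06 in those labelled WT alone. Among 20 tested precursors of miRNAs, 8 were above 0 and 12 below, and among 16 tested small nuclear and nucleolar RNAs, 9 were above and 7 below. At least 10 implied fragments in every library stood behind 1 of these 20 and 0 of these 16. Of 370 transfer RNA identifiers, 0 reached the level for testing.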

How the data were processed

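TruSeq mRNA libraries were made and sequenced in pairs (HiSeq2000) by a sequencing company, and the authors aligned (TopHat2) and quantified (Cufflinks) the reads in Galaxy. The deposited values are FPKM with confidence bounds, 1 table per sample. The genome build is not given in the sources used here. Positions are those of the tables, read as 1-based.

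Rows of 2 repeated identifiers were summed, and 1 row per table without an identifier (at most 3.50e-06% of the FPKM) was left out. Implied fragments were computed from each upper bound, as (2 FPKM/(bound − FPKM)) squared. Below 20 fragments, 78.9% to 80.3% of the values in a library were whole numbers within 0.01. Bounds and fragments cover counting error only. Libraries were scaled by median ratios over 13095 genes with at least 1 FPKM in every library. Genes with a mean of at least 1 FPKM were fitted with limma 3.58.1 (R 4.3.3, eBayes with trend) on log2(FPKM + 1), with treatment and genotype as terms and 5 residual degrees of freedom. The fold change understates the change of low genes. Genotype differences in the response were tested with 1 mean per group. Library measures were compared by exact permutation in scipy 1.17.1.

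Tested on simulated data of 14904 genes for MeJA against mock, the procedure recovered 89% of changed genes at a log2 change of 1.5 and 97% at 2, and called 8 others. The changed genes were drawn from those with higher means.

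Named genes are called genes with no overlap and at least 10 implied fragments in the treatment with the higher level, limited to 2 printed identifiers per direction, and the genes that the study identifies. Members and lists were chosen with earlier results of these data known. None of 26552 BRADI identifiers matched the reference table, so the intended gene lists, leaf markers and promoter motifs could not be built. Alternatives were other scalings, pseudocounts, filters, model terms and thresholds, each labelled genotype alone, voom on implied fragments, and each library left out. Shares by level and runs of neighbours were added after the data were seen.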

Additional observations from a re-analysis of the deposited data

Results flagged for a closer look

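In 66 groups of 4 libraries, those of the called genes and of the pathway genes and library measures, 4 held a library far from the other 3 by Dixon's criterion, which chance meets in about 1 in 20 groups. The groups hold both labelled genotypes, so this rate is a guide only. For the gene on chromosome 3 at 37986914, mock library 2 was at 0.0587 FPKM and the other 3 mock libraries at 0. That value is 1 implied fragment, and any value above 0 would have been flagged. For the gene on chromosome 3 at 49706021, MeJA library 7 was at 54.9 FPKM and the others at 71.6 to 74.9 FPKM. For the gene on chromosome 3 at 29787052, which fell, mock library 6 was at 19.8 FPKM and the others at 10.3 to 11.7 FPKM. For *NINJA*, MeJA library 8 was at 24.3 FPKM and the others at 19.3 to 19.7 FPKM.

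The response to MeJA differed between the labelled genotypes in 2 genes by the limma test of that difference, and both were noticed only through it. BRADI4G01960 on chromosome 4 had a difference of responses, MTL-OX minus WT, of 4.66 on the log2 scale (SE 0.29, limma adjusted p = 0.0234), and was above 0 only in mock libraries 1 and 2, with at most 1 implied fragment. A U2 small nuclear RNA gene on chromosome 3 had a difference of 3.52 (SE 0.24, limma adjusted p = 0.0243), and was above 0 only in MeJA libraries 7 and 8, with 0.250 implied fragments. The sign of both turns if the genotypes of the table names are used.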

How the results depend on the processing

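No paired analysis was possible because no sample number occurs in more than 1 group. All 25 called genes kept their direction in every fit, which for the 23 without overlap is set by how they lie when a library is left out, and each was called in only 5 to 12 of 13 other settings and in 0 to 8 of 8 fits with 1 library left out. Counts of genes that rose and fell (15 and 10) were 26 and 13 with 1 mean per group, 32 and 12 with the libraries labelled WT alone, 2 and 1 with those labelled MTL-OX alone, 5 and 2 with no filter on low values, 3 and 1 without the genotype term, and 0 and 0 at an adjusted p of at most 0.001. Many of these were other genes. Shared with the 15 and 10 were 10 and 7 with 1 mean per group. With the libraries labelled WT alone 7 and 2 were shared, and with those labelled MTL-OX alone 0 and 0. No limit on the fold gave 15 and 19, and means 2-fold apart without overlap gave 120 and 43. No rescaling gave 19 and 9, and voom gave 22 and 13, of which 15 and 7 were shared.

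Leaving out 1 library gave 1 to 13 genes that rose and 1 to 13 that fell. The genes that rose were 1, 1, 2, 1, 3 and 8 without libraries 1, 2, 3, 4, 5 and 7, and those that fell were 1, 1, 1, 2, 3 and 3. The 2 genes whose response differed between labelled genotypes became 0 with at least 10 implied fragments, a mean of at least 5 FPKM or a pseudocount of 0.1, and 0 to 10 with 1 library left out, 10 without library 5, 10 without library 6 and 7 without library 7. The log2 difference of *LNJ* turned to −0.33 in the libraries labelled WT alone, to −0.081 with voom, and ranged from −0.20 to 0.15 with 1 library left out, including −0.03 without library 5 and −0.03 without library 6. In the libraries labelled MTL-OX the log2 difference of *LNJ* was 0.41, which rests on 1 implied fragment in MeJA library 8 and 0 in the others. The pooled value averages this with that of the libraries labelled WT. What lies behind the difference between the labels was not tested. Each comparison within a label rests on 2 against 2 libraries. Depth limits short and weakly expressed loci, where 1 fragment can be worth many FPKM.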
